A study of Homo sapiens with 24 samples.

Results

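The regions described here were bound by both TR4 and BCL11A in a human erythroid line and lay away from the ends of protein-coding genes. They were chosen by rule. Merging the peaks of the 24 libraries wherever they overlapped by 1 base or more gave 79570 regions, and the 7349 with an IgG peak were dropped. Core regions were those found in 2 or 3 of the 3 libraries in each of 6 groups, 3 directed at TR4 and 3 at BCL11A. Of 4451 core regions, 1248 were on chromosomes 1 to 22 or X and more than 1 kb from both ends of every protein-coding gene record (GRCh38), and these are called distal core regions. The other 3203, called gene-end core regions, serve for comparison, as do 51215 distal regions that had a peak in some target library but were not core.

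CUT&RUN, which sequences the DNA that an antibody-guided nuclease cuts loose around a bound protein, was applied to nuclei of HUDEP-2, an established line of immortalised human erythroid progenitors, kept in expansion medium with SCF, erythropoietin, dexamethasone and doxycycline and given no further treatment. Clone T carried TR4 fused to FLAG and MYC epitopes, clone B carried BCL11A fused to HA and MYC epitopes, and clone TB carried both fusions, so each genotype is 1 clone of edited cells. The TR4-directed groups were the MYC and TR4 antibodies in clone T and the TR4 antibody in clone TB, and the BCL11A-directed groups were the MYC and HA antibodies in clone B and the HA antibody in clone TB, with 3 libraries each. The MYC antibody in clone TB, which can bring down either fusion, gave 3 further libraries, and IgG gave 1 library for each clone. TR4-directed lists held 4621 to 14924 peaks, BCL11A-directed lists 12284 to 31432, MYC lists of clone TB 20928 to 25738 and IgG lists 2036 to 4828. Peak lists carry no read counts, so sequencing depth is unknown. The libraries numbered 3 stood apart in all 6 groups: they had a peak at 692 to 1023 distal core regions with median folds of 9.2 to 10.3, against 1220 to 1248 regions and 12.03 to 18.7 in the other 12 libraries. Without them, 558 distal core regions were called different in rank between the proteins (235 higher with TR4, 323 with BCL11A), against 639 with them, by the test described further on. The labels do not say whether replicate libraries came from separate cultures, and the spread behind all p-values may be technical. Peaks do not measure expression, so the erythroid identity of the cells could not be checked from these files.

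TR4, encoded by NR2C2, is an orphan nuclear receptor that binds direct repeats of a short hexamer, often as a heterodimer with TR2, and acts as a repressor or an activator depending on its partners. BCL11A is a zinc finger repressor that silences the fetal γ-globin genes in adult red cells through corepressor complexes such as NuRD. Both are known at the β-globin locus, and the study asked how their actions on γ-globin relate to each other. Binding far from gene ends is of interest because erythroid genes are governed largely by distant enhancers.

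The name gene-distal held for most of these regions but not for all. The rule used the outer ends of protein-coding gene records, so alternative start sites inside a gene and the starts of noncoding genes were not screened out. Among the 1204 distal core regions on chromosomes for which RefSeq promoter windows (250 bases before to 50 after an annotated start) were at hand, 306 (25.4%) overlapped such a window. For 216 of them the window belonged to a protein-coding gene, and for 90 to noncoding genes only. The background share among other distal regions was 3.2%, and among gene-end core regions it was 80.3%. Ends of long noncoding RNA gene records, whether start or finish, were also close: 215 distal core regions (17.2%) lay within 1 kb of one, against 6.00% of other distal regions. The remaining regions were divided between gene bodies and intergenic DNA, with 467 inside a protein-coding gene record and 431 between records, neither at a promoter window, and 44 on the 1 chromosome for which no windows were used.

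Promoter windows of RefSeq (GRCh38.p14) are shown for 6 distal core regions, because they give the DNA under summits of regions that ranked very differently for TR4 and BCL11A. The first 4 ranked higher with TR4 and the last 2 higher with BCL11A, by the test described further on. Each window is written 5′ to 3′ on the strand of its gene. Capitals mark matches on either strand to a direct repeat of AGGTCA with any 1 base between the hexamers (up to 3 mismatches in its 12 fixed bases), to the single half-sites AGGTCA and GGGTCA, and to the BCL11A motif TGACCA. A half-site can be part of a repeat. A match is a description and not a shown binding site. The window of FAM20B held no match and is not printed. Its region ranked higher with BCL11A by more than the last 2 (mean percentile 10.3 with TR4 and 84.3 with BCL11A). Its median summits lay 353 bases (TR4) and 333 bases (BCL11A) before the start, outside the window.
ZNF529-AS1: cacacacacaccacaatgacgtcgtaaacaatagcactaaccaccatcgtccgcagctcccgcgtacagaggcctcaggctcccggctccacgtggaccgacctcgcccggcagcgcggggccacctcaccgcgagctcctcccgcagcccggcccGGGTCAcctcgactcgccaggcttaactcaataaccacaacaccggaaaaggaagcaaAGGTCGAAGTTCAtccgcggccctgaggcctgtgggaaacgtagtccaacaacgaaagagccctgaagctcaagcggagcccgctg
ZNF567-DT: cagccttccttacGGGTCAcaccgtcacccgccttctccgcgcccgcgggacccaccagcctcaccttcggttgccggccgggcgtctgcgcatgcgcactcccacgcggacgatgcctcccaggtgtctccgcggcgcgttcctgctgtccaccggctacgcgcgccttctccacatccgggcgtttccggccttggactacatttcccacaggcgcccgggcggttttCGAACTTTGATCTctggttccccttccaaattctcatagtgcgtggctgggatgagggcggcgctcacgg
PACRGL: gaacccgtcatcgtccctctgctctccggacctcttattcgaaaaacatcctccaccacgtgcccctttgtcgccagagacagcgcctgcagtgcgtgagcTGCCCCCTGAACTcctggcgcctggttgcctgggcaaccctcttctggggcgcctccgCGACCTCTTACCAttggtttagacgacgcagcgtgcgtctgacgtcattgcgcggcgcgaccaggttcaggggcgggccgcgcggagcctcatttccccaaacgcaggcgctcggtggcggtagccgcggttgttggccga
LINC00662: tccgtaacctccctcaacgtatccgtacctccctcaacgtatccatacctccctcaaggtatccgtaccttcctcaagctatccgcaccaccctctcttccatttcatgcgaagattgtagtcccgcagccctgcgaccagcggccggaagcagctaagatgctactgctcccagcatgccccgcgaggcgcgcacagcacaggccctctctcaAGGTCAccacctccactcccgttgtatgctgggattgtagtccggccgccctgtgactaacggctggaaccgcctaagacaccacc
MID1IP1-AS1: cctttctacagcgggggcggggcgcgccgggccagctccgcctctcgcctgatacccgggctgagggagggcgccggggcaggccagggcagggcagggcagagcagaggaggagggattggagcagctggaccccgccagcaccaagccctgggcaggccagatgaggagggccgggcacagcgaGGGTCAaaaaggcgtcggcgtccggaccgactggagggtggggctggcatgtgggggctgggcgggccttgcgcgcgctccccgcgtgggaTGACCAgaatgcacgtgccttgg
LINC01431: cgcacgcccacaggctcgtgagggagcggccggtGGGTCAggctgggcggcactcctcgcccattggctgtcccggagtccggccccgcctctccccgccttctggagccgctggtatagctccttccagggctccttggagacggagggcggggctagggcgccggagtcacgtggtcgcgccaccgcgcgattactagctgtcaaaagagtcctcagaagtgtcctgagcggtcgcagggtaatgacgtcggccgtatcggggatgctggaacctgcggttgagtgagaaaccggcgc
The window of ZNF529-AS1 is chr19:36573099-36573398 on the plus strand, upstream of an antisense transcript inside the zinc finger gene ZNF529. Its repeat, with 2 mismatches, had its centre 2 bases from the median TR4 summit and 6 bases from the median BCL11A summit. The window of ZNF567-DT, a divergent transcript of the zinc finger gene ZNF567, is chr19:36687400-36687699 on the minus strand, and its repeat with 3 mismatches lay 24 bases from the TR4 summit and 88 from the BCL11A summit. The window of PACRGL is chr4:20700208-20700507 on the plus strand, with a repeat of 3 mismatches 9 bases from both summits and another 49 bases away. LINC00662, a long noncoding RNA gene, has the window chr19:27793891-27794190 on the minus strand, with a single half-site 15 bases from both summits. MID1IP1-AS1 has the window chrX:38803834-38804133 on the minus strand, where the BCL11A motif lay 151 bases from the BCL11A summit and 194 from the TR4 summit. LINC01431, a long noncoding RNA gene beside the zinc finger gene GZF1, has the window chr20:23358078-23358377 on the minus strand, with a half-site GGGTCA 62 bases from the TR4 summit and 32 from the BCL11A summit.

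Across the 306 regions at promoter windows, the share with each motif is given for 67 regions that ranked higher with TR4, 94 that ranked higher with BCL11A and 145 that were not called, beside all 35116 windows, each in the same order. The direct repeat was in 28.4%, 19.1% and 20.7% of the regions and in 20.9% of all windows. Where it occurred, it lay within 30 bases of the median TR4 summit in 12 of 19 regions higher with TR4 (63.2%), in 4 of 18 higher with BCL11A (22.2%) and in 10 of 30 not called (33.3%). The variant half-site GGGTCA was in 29.9%, 13.8% and 17.2%, against 14.1% of all windows, while AGGTCA was in 11.9%, 9.57% and 17.2%, against 13.8%. The BCL11A motif TGACCA was in 4.48%, 8.51% and 6.90%, against 10.7%. The GATA motif AGATAA was in 5.97%, 6.38% and 3.45%, against 10.3%. The KLF motif CCACACCC was in 0, 4 and 7 regions, against 3.28% of all windows. The ETS motif CCGGAAG was in 26.9%, 17.02% and 22.1%, against 10.3%, and the E-box CACGTG, which MYC also binds, was in 19.4%, 13.8% and 9.66%, against 7.26%. A region can overlap several windows, and members' windows were richer in G and C than the median window, with 65.0%, 66.3% and 67.5% against 58.7%. These shares were not tested, and the part of base composition in them was not tested.

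To compare regions between TR4 and BCL11A, the 4451 core regions were ranked in each library by the authors' fold enrichment at the peak summit, a linear ratio given by their peak caller. The rank is stated as a percentile, with 100 for the strongest core region of a library and the lowest rank for a region without a peak there. The authors' folds themselves are printed as a description, over the libraries with a peak, since lists differ in length and depth.

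The 8 strongest distal core regions were taken by mean percentile over all 18 libraries, so high ranks with both proteins follow from that choice. At HSD11B1L, a short-chain dehydrogenase gene (chr19:5686546-5687366), the fold was 51.4 at its lowest, 112 at the median and 217 at its highest in the TR4-directed libraries, against 18.8, 58.4 and 73.7 in the BCL11A-directed ones. The mean percentile there was 97.6 ± 1.31 with TR4 and 97.8 ± 1.89 with BCL11A (SD, n = 9 each). Inside ARID3A, which encodes an AT-rich interaction domain factor (chr19:940535-941290), the folds were 46.9, 93.2 and 143 with TR4, against 22.3, 45.4 and 69.1 with BCL11A. By mean percentile both loci thus stood near the top of the core regions with both proteins, and the summits of TR4 and BCL11A there were 4 and 0 bases apart. Near PARK7, which encodes the oxidative stress protein DJ-1, a region 7322 bases from the gene record (chr1:7953947-7954389) had folds of 44.0, 53.7 and 82.8 with TR4, against 28.9, 36.9 and 50.2 with BCL11A. A region near the zinc finger gene ZNF77 (chr19:2949757-2950984) had no called difference (adjusted p = 0.130 over all core regions, exact permutation test). A region inside PDE4C, a phosphodiesterase gene (chr19:18223863-18224861), was also among the 8 strongest, with a median fold of 280 with TR4 and 30.0 with BCL11A. The region overlapped an inner promoter window, but its median summits lay 519 (TR4) and 522 (BCL11A) bases after the start, outside that window. It ranked higher with TR4 (adjusted p = 0.000645, exact permutation test). The regions near C1orf174 and near GZMM, also among the 8, ranked higher with BCL11A (adjusted p = 0.000208 for both, exact permutation tests).

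Over all distal core regions, the share whose rank differed between the proteins was close to that among all core regions. By an exact two-sided permutation test of 9 TR4-directed against 9 BCL11A-directed libraries, Benjamini-Hochberg adjusted over all 4451 core regions at 0.05, 268 distal core regions (21.5%) ranked higher with TR4, where the background over all core regions was 25.9%. Another 371 (29.7%) ranked higher with BCL11A, where the background was 27.5%, and 609 were not called. Among gene-end core regions, 884 ranked higher with TR4 and 853 with BCL11A. Ranked among distal core regions only, 308 were higher with TR4 and 326 with BCL11A. The smallest p this design allows is 4.11e-05, which becomes an adjusted 0.000208, and every region named in the next 2 paragraphs had it. Such a p arises only where the percentiles of both groups of libraries do not overlap, so separation in rank there is no further result. The permutation test exchanged single libraries freely and ignored their grouping by antibody and clone. Its p-values and calls therefore do not measure spread between antibodies or clones of the same target. The same limit holds for the later tests that exchanged libraries between the proteins.

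**Figure D1:**
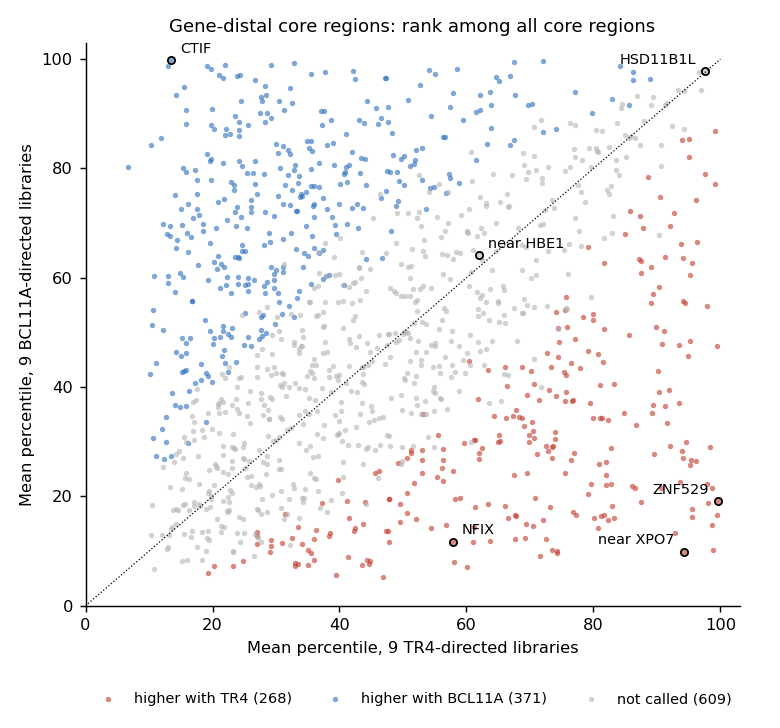
Mean percentile of each of 1248 distal core regions among all core regions, in the 9 TR4-directed libraries (horizontal axis) and the 9 BCL11A-directed libraries (vertical axis). Red marks 268 regions ranked higher with TR4, blue 371 ranked higher with BCL11A and grey 609 not called; the dotted line marks equal percentiles, and HSD11B1L lies near the top right, at 97.6 with TR4 and 97.8 with BCL11A.

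Regions that ranked higher with TR4 included some of the strongest TR4 peaks among core regions. The region inside ZNF529 (chr19:36572816-36573487), whose window is printed above, had folds of 133 at the lowest, 193 at the median and 654 at the highest in 9 TR4-directed libraries, against 4.13, 11.3 and 15.2 in the 7 BCL11A-directed libraries with a peak. The groups did not overlap, and the mean percentile was 99.6 ± 0.458 with TR4 and 19.1 ± 14.6 with BCL11A (SD, n = 9 each). Inside ZBTB40, another zinc finger gene (chr1:22451534-22452012), the folds were 107, 240 and 362 with TR4, against 7.25, 10.5 and 13.5 in 6 BCL11A-directed libraries. A region 1236 bases from RWDD2B (chr21:29002507-29003148) had 52.6, 154 and 362, against 4.69, 6.39 and 9.87. Inside LASP1, an actin-binding protein gene (chr17:38871468-38871929), the median folds were 156 with TR4 and 6.82 with BCL11A, and near FOXK1, a forkhead factor gene (chr7:4641659-4642366), 129 and 8.23. At none of these loci did the weakest TR4 peak fall to the level of the strongest BCL11A peak.

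Near XPO7, an exportin known for its part in nuclear condensation of maturing red cells, the region chr8:22009863-22010737 had folds of 29.1, 61.7 and 111 with TR4, against 5.16, 6.75 and 10.6 with BCL11A. The region farthest from any protein-coding gene end, 1411237 bases from UQCRFS1 (chr19:27793826-27794083), overlapped the promoter window of LINC00662 printed above, and had 26.1, 44.3 and 119, against 5.02, 7.73 and 9.93. Their mean percentiles were 94.2 ± 1.82 and 92.9 ± 3.91 with TR4, and 9.93 ± 8.37 and 13.3 ± 10.9 with BCL11A (SD, n = 9 each). The regions at the windows of ZNF567-DT (98.6 ± 0.737 against 21.6 ± 12.7) and PACRGL (95.5 ± 1.12 against 17.8 ± 14.7) had the same order of mean percentiles, TR4 first (SD, n = 9 each). Regions that ranked higher with BCL11A lay in the gene bodies of CTIF, a translation initiation factor (chr18:48781164-48781793), KIF26A, a kinesin (chr14:104158811-104159203), FAM117A, SH3GL1, an endophilin (chr19:4374425-4375408), and RAC1, a small GTPase (chr7:6393269-6393663). At CTIF the folds were 4.43, 5.73 and 10.4 in the 6 TR4-directed libraries with a peak, against 36.2, 80.7 and 146 in the BCL11A-directed libraries. At KIF26A they were 4.99, 6.37 and 9.32 with TR4, against 27.9, 43.3 and 123.2 with BCL11A. The groups did not overlap at either gene, and the mean percentile at CTIF was 13.5 ± 10.0 with TR4 and 99.8 ± 0.148 with BCL11A (SD, n = 9 each). The windows of MID1IP1-AS1 (24.4 ± 14.6 against 97.0 ± 3.29) and LINC01431 (28.4 ± 18.6 against 93.4 ± 6.73) had the opposite order of mean percentiles (SD, n = 9 each).

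**Figure D2:**
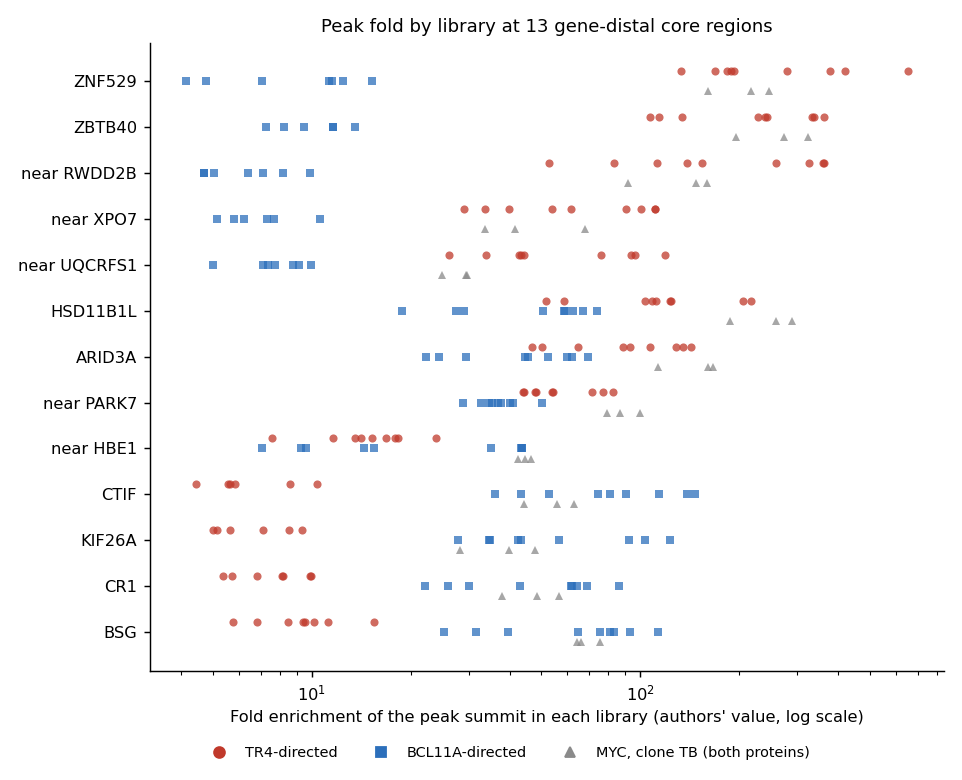
Authors' fold enrichment of the peak summit (log axis) at 13 distal core regions, 1 point for each library with a peak: TR4-directed (red circles), BCL11A-directed (blue squares) and MYC in clone TB (grey triangles). From ZNF529 to the region near UQCRFS1 the red points lie right of all blue points, from CTIF to BSG left of all of them, and near HBE1 they overlap.

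The directions held inside each matched set of libraries. With both proteins measured in the same cells of clone TB (TR4 against HA antibody), 251 of the 268 regions higher with TR4 and 366 of the 371 higher with BCL11A kept their direction. With the same antibody (MYC, clone T against clone B) 264 and 364 did. These libraries are part of the 18 that made the calls, so the counts describe how even the calls are and are no separate test.

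The erythroid gene lists were read as loci that hold a distal core region or have the nearest gene end within 100 kb of one. Over all 20037 protein-coding genes this share was 5.5%. Among erythroid transcription factors it was 7 of 22 (LDB1, NFE2, GFI1B, FOXO3, ZFPM1, CBFA2T3 and MAFG), and among regulators of the fetal globin genes 3 of 22 (ZBTB7A, NFIA and NFIX). Lists of 10 to 23 genes give small counts, gene length and spacing differ between lists, and none of these shares was tested. Of the 9 regions at erythroid transcription factors, 2 ranked higher with TR4 and 5 with BCL11A, where the backgrounds over all core regions were 25.9% and 27.5%; these counts were not tested.

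NFE2, which encodes a subunit of the erythroid factor NF-E2, had 3 of these regions, and they did not share a direction. The region nearest its record end (chr12:54294251-54294570) had folds of 7.87, 19.5 and 48.0 with TR4, against 5.12, 8.57 and 13.1 in 7 BCL11A-directed libraries, and ranked higher with TR4 (mean percentile 73.1 ± 12.6 against 18.1 ± 12.5, SD, n = 9 each). The next one inside the gene (chr12:54295671-54296151) had 6.59, 8.76 and 18.3 in 7 TR4-directed libraries, against 27.8, 60.3 and 93.3 with BCL11A. The third (chr12:54304270-54304759), 3255 bases outside the record, had 5.66, 9.61 and 13.4 with TR4, against 13.03, 29.3 and 72.6 with BCL11A. Within this locus a TR4-ranked and a BCL11A-ranked region lay next to each other, all 3 at an adjusted p of 0.000208 by the exact permutation test.

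ZFPM1, which encodes the GATA1 cofactor FOG1, had a region (chr16:88468382-88468903) with folds of 3.92, 10.8 and 14.3 in 7 TR4-directed libraries, against 11.6, 26.8 and 46.4 with BCL11A, and it ranked higher with BCL11A (adjusted p = 0.000208, exact permutation test). Near CBFA2T3, which encodes the corepressor ETO2, the percentile was 66.9 ± 10.5 with TR4 and 84.3 ± 9.34 with BCL11A (SD, n = 9 each; exact permutation test, adjusted p = 0.00648). MAFG, the small Maf partner of NF-E2, also ranked higher with BCL11A (adjusted p = 0.0263, exact permutation test). A region at the inner promoter of PPRC1 near LDB1, the looping factor of erythroid enhancers, ranked higher with TR4 (62.0 ± 12.2 against 27.9 ± 14.4, SD, n = 9 each; exact permutation test, adjusted p = 0.000645). GFI1B and FOXO3 were not called (adjusted p = 0.174 and 0.0542, exact permutation tests).

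At the globin genes 1 of 10 members was reached, by the region chr11:5280584-5281046 on the locus control region side of HBE1. Its folds were 7.58, 15.2 and 23.96 in the TR4-directed libraries, against 7.04, 15.5 and 43.5 in the BCL11A-directed ones. The percentile was 61.9 ± 11.5 with TR4 and 64.1 ± 32.5 with BCL11A (SD, n = 9 each), not called (exact permutation test, adjusted p = 0.889), and the median summits of both proteins fell on the same base. The BCL11A-directed folds differed between clones and libraries. The HA antibody gave 43.5 in all 3 libraries of clone TB, where the TR4 antibody gave 15.2, 17.9 and 23.96, while in clone B it gave 15.5, 9.29 and 9.59 and the MYC antibody 14.4, 35.2 and 7.04. In clone TB each HA fold was thus above each TR4 fold, but these are folds of different lists, and the difference was not tested. Among the fetal globin regulators, NFIX, a nuclear factor I gene (chr19:13051551-13051921), had 9.64, 13.8 and 20.5 with TR4, against 3.61, 6.52 and 9.21 in 8 BCL11A-directed libraries, and ranked higher with TR4 (57.8 ± 15.2 against 11.8 ± 8.85, SD, n = 9 each; exact permutation test, adjusted p = 0.000208). ZBTB7A, which encodes the γ-globin repressor LRF, had a weak region at an inner start site, with a median fold of 8.54 in the 6 libraries of TR4 with a peak and of 8.89 in the 8 of BCL11A, and was not called, nor was the region near NFIA.

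Membrane and blood group genes also had distal core regions. Of 19 membrane genes 3 had a region (ANK1, GYPC and the glucose transporter gene SLC2A1), and of 19 blood group genes 4 (RHD, FUT1, BSG and CR1), with 5 of these 8 regions ranked higher with BCL11A and 0 with TR4 (backgrounds 27.5% and 25.9%, not tested). Inside GYPC, which encodes glycophorin C, one region (chr2:126661703-126662307) had folds of 5.13, 8.04 and 17.8 in 6 TR4-directed libraries, against 23.6, 38.97 and 57.3 with BCL11A, while the other, closer to the gene's end (chr2:126657921-126658294), was not called. At BSG, which encodes basigin, the carrier of the Ok antigen (chr19:574090-575273), the folds were 5.76, 9.49 and 15.4, against 25.2, 75.1 and 113. At CR1, the complement receptor of the Knops antigens (chr1:207519801-207520653), they were 5.35, 8.13 and 9.98, against 22.04, 61.4 and 86.2. Both groups of libraries stood apart at GYPC's called region, BSG and CR1. ANK1, which encodes ankyrin, had 21.6 ± 14.1 with TR4 and 50.3 ± 27.0 with BCL11A as its mean percentiles (SD, n = 9 each; exact permutation test, adjusted p = 0.0255).

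Heme synthesis (2 of 15 genes) and iron handling (3 of 16) were divided. A region near ALAS1, which encodes the housekeeping form of the first enzyme of heme synthesis, ranked higher with TR4, and one near SLC25A39, a mitochondrial glutathione carrier, higher with BCL11A (adjusted p = 0.00470 and 0.00207, exact permutation tests). SLC11A2, the iron transporter DMT1, had folds of 23.3, 53.0 and 98.8 with TR4 at an inner promoter (chr12:51026114-51026713), against 10.4, 14.6 and 32.3 with BCL11A, and ranked higher with TR4, while SLC25A28 and NCOA4 were not called. CCND3, the cyclin that sets the number of divisions of red cell precursors, was the only 1 of 12 cell cycle genes with a region, and 2 of its 3 regions ranked higher with BCL11A. Erythropoietin and KIT signalling had 2 of 20 (PIM1, higher with TR4 at adjusted p = 0.0398 by the exact permutation test, and PIK3R1, not called), and red cell autophagy 1 of 10 (XPO7). Corepressors had 4 of 23, with 8 regions at CHD3, MTA2, GATAD2A and SIN3A. Only 1 region, at an inner promoter of SIN3A, was called, and it ranked higher with BCL11A (52.1 ± 10.1 against 83.4 ± 7.56, TR4 first, SD, n = 9 each; exact permutation test, adjusted p = 0.000208). CHD3, MTA2 and GATAD2A encode NuRD subunits. The backgrounds of calls over all core regions were 25.9% higher with TR4 and 27.5% with BCL11A, and the counts of calls in these lists were not tested. Among lists of other cell types, liver genes had 0 of 10, megakaryocyte and platelet genes 0 of 15, neuron genes 1 of 10 (GRIN1), lymphoid genes 2 of 10 and myeloid genes 1 of 10 (CD14, whose region is also the promoter of TMCO6). Over the 10 erythroid lists 27 of 158 genes had a region (17.1%), and over the 5 lists of other cell types 4 of 55 (7.27%).

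Chromosome 19 held a large part of the distal core regions. It carried 281 of them (22.5%), against 15.4% of gene-end core regions, 5.75% of other distal regions and 7.26% of protein-coding genes. No other chromosome held more than 8.01% of the distal core regions. The share grew with the number of libraries that had the peak. Of distal regions found in 1 of 18 target libraries 4.49% were on chromosome 19, of those found in 2 to 5 libraries 6.604%, in 6 to 11 libraries 8.52%, in 12 to 17 libraries 16.03% and in all 18 libraries 28.3%. By library, the share among distal regions was 11.6% to 16.4% with TR4 and 8.06% to 9.49% with BCL11A, without overlap, and 3.77% to 4.76% with IgG. List lengths differed between the targets, and the part of list length in this gap was not tested. The share of called regions on chromosome 19 was close to that elsewhere, with 66 of 281 higher with TR4 (23.5%) and 86 with BCL11A (30.6%).

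**Figure D3:**
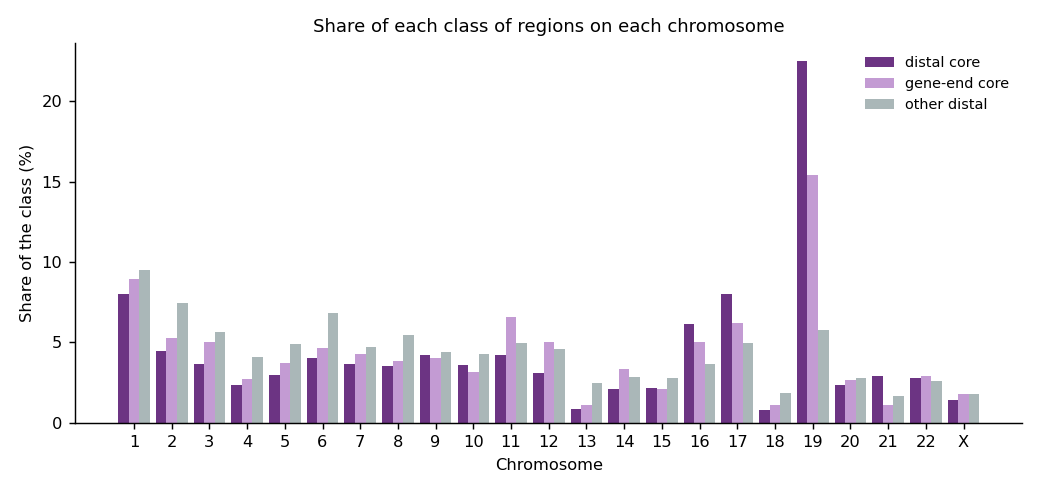
Percentage of 1248 distal core regions (dark bars), 3203 gene-end core regions (light purple) and 51215 other distal regions (grey) on each chromosome. Chromosome 19 holds 22.5%, 15.4% and 5.75% of the 3 classes.

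Chromosome 19 carries large clusters of zinc finger genes, many of them KRAB repressors of transposable elements. Distal core regions in or nearest to a gene whose symbol contains ZNF, ZBTB, ZSCAN or ZFP and a number numbered 57, a grouping chosen after values were seen. Of these, 23 ranked higher with TR4 (40.4%) and 8 with BCL11A (14.04%), against 20.6% and 30.5% of the other 1191 regions. Besides ZNF529, ZBTB40 and ZNF567, those higher with TR4 included ZNF331 (mean percentile 69.4 with TR4 and 14.9 with BCL11A), ZNF599 (60.1 and 7.04) and ZBTB43 (66.1 and 18.3). Those higher with BCL11A included ZNF217 (51.7 and 80.9) and ZNF598 (41.2 and 77.5). The grouping goes by symbol and not by KRAB domain, and it was not tested. Many regions of the grouping lie on chromosome 19, among them ZNF529, ZNF567, ZNF331 and ZNF599, but not all do. ZBTB40 is on chromosome 1, ZBTB43 on chromosome 9, ZNF598 on chromosome 16 and ZNF217 on chromosome 20.

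Summits of TR4 and BCL11A lay farther apart at distal core regions than summits of one protein. By the rule both proteins had peaks inside the same merged region, with a median width of 393 bases. Short distances follow in part from that choice, and the distance that chance would give was not computed. For every pair of libraries, the median distance between their summits was taken over regions with a peak in both. Between a TR4-directed and a BCL11A-directed library it averaged 33.8 bases (range over pairs 27 to 42), against 20.5 bases between libraries of the same target (14 to 27), a difference of 13.3 bases (exact permutation test of the 9 against 9 labels, two-sided, p = 4.11e-05, the smallest possible). Pairs within TR4 averaged 18.9 bases and pairs within BCL11A 22.01. Gene-end core regions gave nearly the same values, 35.5 and 22.7 bases. Where each library had exactly 1 peak in the region the difference was 9.86 bases.

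**Figure D4:**
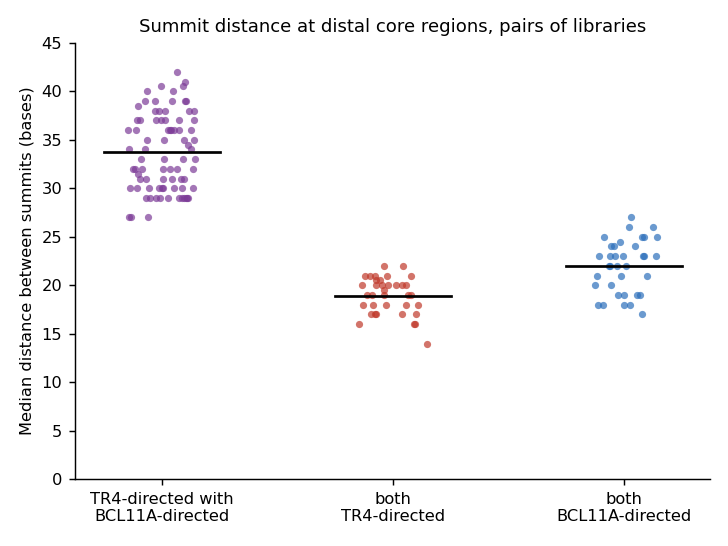
Median distance in bases between peak summits of 2 libraries at distal core regions, 1 point for each pair of libraries: TR4-directed with BCL11A-directed (left), both TR4-directed (middle) and both BCL11A-directed (right), with the mean as a bar. The means are 33.8, 18.9 and 22.01 bases.

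Region by region, the median TR4 summit was 19 bases from the median BCL11A summit at the median (quartiles 5 and 56). The distance was at most 20 bases in 645 regions (51.7%) and over 100 bases in 147 (11.8%). The width of the regions bounds these distances, so the shares are a description and were not tested. The summits fell on the same base at ARID3A, near C1orf174, in SAXO5 and at LTBP4, the 4 with the highest mean percentile among 51 regions with a peak in all 18 libraries and both median summits on 1 base. They were 641 bases apart in FAM53A (chr4:1580192-1581392), 565 near ZNF77 and 417 near ALG1L2, wide regions in which peaks of more than 1 position were joined by the merging. At the 306 regions with a promoter window, the TR4 summit lay at a median of 92 bases before the nearest annotated start and the BCL11A summit 81.5 bases before it.

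Relative to gene-end core regions of the same library, distal core regions were weaker TR4 peaks, and for BCL11A they were about as strong. The measure is the share of pairs in which a distal core peak had a higher fold than a gene-end core peak, with 0.5 for equal strength. It was 0.456 ± 0.0176 with TR4, all 9 libraries lying between 0.427 and 0.477, and 0.513 ± 0.0238 with BCL11A, all 9 lying between 0.480 and 0.549 (SD, n = 9 each). The groups did not overlap, and the difference of −0.0570 gave p = 4.11e-05 (exact permutation test, two-sided, the smallest possible). Within clone TB the difference was −0.101, and with the MYC antibody alone −0.0258 (exact permutation tests, p = 0.1 for both, the smallest that 3 against 3 libraries allow). Peak width behaved in the same way. On the log2 scale, median width of distal over gene-end core peaks was −0.18 ± 0.0439 with TR4 and −0.04 ± 0.0512 with BCL11A (SD, n = 9 libraries each), and they differed by −0.14 (exact permutation test, p = 4.11e-05). With every list limited to the length of the shortest, the differences were −0.0336 in strength and −0.05 in log2 width, and with 1 peak per library and region the width difference was −0.09.

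**Figure D5:**
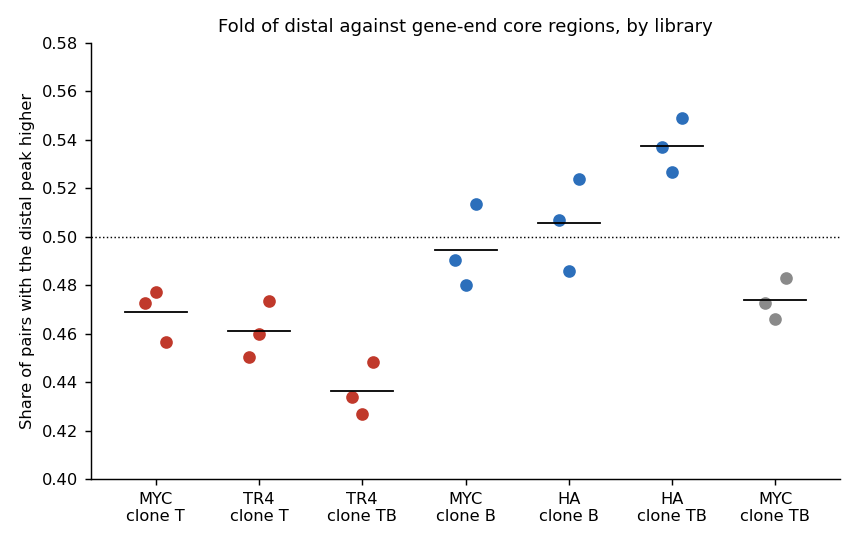
Share of pairs of 1 distal and 1 gene-end core peak in which the distal peak had the higher fold, by library (points) and group (bar, mean of 3), for TR4-directed (red), BCL11A-directed (blue) and MYC clone TB libraries (grey). All TR4-directed libraries lie under the dotted line at 0.5, as do MYC libraries of clone TB at 0.466 to 0.483.

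The 3 MYC libraries of clone TB entered the merging that set the extent of the regions, but a peak in them was no condition for a core region. The rule did ask for TR4 and HA peaks in at least 2 of 3 libraries of this same clone. The MYC antibody can bring down both fusions there, so MYC peaks follow largely from that choice and are no separate support. They had a peak at 1248, 1248 and 1231 of the 1248 distal core regions, and all 1248 had one in at least 2 of these libraries, where the background over all regions without an IgG peak was 28.3%. Among other distal regions 24.2%, 22.8% and 18.7% had a peak in the same libraries. Among gene-end core regions 99.97%, 99.91% and 99.34% had one, so this presence was not particular to the distal core regions. Regions higher with TR4 had median percentiles of 62.1, 64.2 and 62.3 in these libraries, regions higher with BCL11A 54.0, 50.0 and 53.5, and regions not called 41.0, 37.5 and 41.4. At ZNF529 the MYC folds of clone TB were 160, 217 and 247 from lowest to highest, at CTIF 44.1, 55.8 and 62.9, and at HSD11B1L 188, 259 and 290. In cells with both fusions, ZNF529 and CTIF, from opposite ends of the ranking, thus both had MYC peaks in all 3 libraries.

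Membership rested on peak presence near a threshold for many of the regions. A peak was present in all 18 libraries at 360 of the 1248, while 888 had exactly 2 of 3 in at least 1 group. Another 732 distal regions met the rule in 5 of 6 groups and were left out, 317 of them for the TR4 antibody in clone TB and 180 for the TR4 antibody in clone T. The 5 regions closest to the distance limit lay 1007 to 1024 bases from a gene end, and the 5 closest ones outside it 991 to 996 bases. With peaks required in both remaining libraries, 692 regions were left without MYC clone T replicate 1, 687 without its replicate 2, 787 without TR4 clone T replicate 1 and 773 without its replicate 2. Regions had a median width of 393 bases, and their median distance from a gene end was 7558.5 bases, with 154 more than 50 kb away. Of these 154, 44 ranked higher with TR4 (28.6%) and 44 with BCL11A (28.6%), and of the 467 within 5 kb 100 (21.4%) and 140 (30.0%).

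Some distal core regions lay in crowded stretches. In all, 262 had another within 10 kb, and 8 runs of 4 or more were found. The longest stood in the tandem array of U2 small nuclear RNA genes on chromosome 17, where 17 regions lay between 43233467 and 43310109 and 16 of them were within 1 kb of an annotated U2 or related small nuclear RNA record. In 13 of the 17 a peak was present in all 18 libraries. Their mean percentiles were 36.0 to 76.4 with TR4 and 42.5 to 93.4 with BCL11A, with 0 called higher with TR4 and 2 with BCL11A. U2 genes of the array are near-identical copies, and the sources used here do not give how reads that match several copies were placed, so the value of a single copy is uncertain. The same holds for 2 runs of 4 on the short arm of chromosome 21 (6369333 to 6372344 and 7657084 to 7659452), in which 5 of 8 ranked higher with TR4. Other runs lay at LTBP4 (7 regions), KLF16 (6) and LTBP3 (4). At KLF16, a Krüppel-like factor gene, 4 of 6 ranked higher with BCL11A, and at LTBP3, a latent TGF-β binding protein gene, 3 of 4 ranked higher with TR4. Over all core regions 25.9% ranked higher with TR4 and 27.5% with BCL11A. The counts of calls in these runs are small and were not tested.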

How the data were processed

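CUT&RUN peak lists of 24 libraries were used, 1 list per library as deposited, so the authors called peaks library by library. The tools named in the submitters' processing notes are MACS2 2.1.4, Bowtie2, SAMtools, Picard and Trimmomatic, with genome build GRCh38; their roles and settings are not given in the sources used here. Each deposited peak carries a fold enrichment (a linear ratio), a −log10 p-value and a −log10 q-value from the authors' peak caller, and the offset of its summit. The smallest −log10 q-value deposited was 2 in each kind of library. Folds served only for ranking and describing peaks inside 1 list. Depth is unknown, so no counting interval is given, and the number of libraries limits the precision.

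Groups came from the labels. Merging, ranks, exact permutation tests and Benjamini-Hochberg adjustment were computed with Python 3.11.15, numpy 2.4.6, pandas 2.3.3 and scipy 1.17.1; in a region with several peaks of a library the strongest was used. Tested on simulated data of 4451 regions, 200 of them changed by 2 on the log2 scale, the rank test recovered 83.0% of those. None of the changed regions was called in the wrong direction, but 18 unchanged regions were called as well. The simulated noise was independent between libraries, without differences between antibodies or clones of the same target. The simulation therefore does not show how the test behaves where such differences exist. Gene records, promoter windows and sequences came from RefSeq (GRCh38.p14); no genome was used, so exons, introns and UTRs are not stated and sequences outside promoter windows are not shown. The distal rule, the members and the 16 gene lists were chosen with earlier results of these data known.

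Regions were named by rule: the 8 with the highest mean percentile, up to 8 of each direction with the lowest p, up to 4 from each gene list, regions near the globin genes, the 4 with the longest and the 4 with the shortest summit distance, the 4 farthest from a gene end and 6 at promoter windows; the text prints those it needs, and some are not reported here. Other regions named with the sequences, the zinc finger genes, the crowded stretches and the first NFE2 region were chosen after their values were seen. Alternatives covered list length, the q threshold, libraries per group, summit windows, distance, the IgG filter, replicate blocks, left-out libraries, replicates 1 and 2 only, the ranking value and set, subsets of libraries and regions with several peaks.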

Additional observations from a re-analysis of the deposited data

Results flagged for a closer look

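The difference between the TR4 and HA antibodies in the strength of distal against gene-end core regions was not the same in clone TB as between the separate clones; neither antibody was tested alone. The share of pairs in which the distal core peak had the higher fold was lower with the TR4 antibody than with the HA antibody by a difference of −0.101 in clone TB, where both proteins were measured in the same cells, and of −0.0442 between clone T and clone B. The difference between these contrasts was −0.0568, and it is given here because it passed a test of that difference, in which libraries were exchanged between clones within each antibody (400 arrangements, exact permutation test, two-sided, p = 0.005, the smallest possible). The TR4 antibody gave 0.436 in clone TB and 0.461 in clone T, and the HA antibody 0.538 in clone TB and 0.506 in clone B (means of 3 libraries each). The same contrast for peak width, −0.08 on the log2 scale, did not pass (exact permutation test, p = 0.155). Clone and genotype cannot be told apart, since each genotype is 1 clone.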

How the results depend on the processing

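No result changed direction. With every list cut to the length of the shortest there were 175 distal core regions and 72 called ones (32 higher with TR4, 40 with BCL11A), and MYC libraries of clone TB had a peak at 95.6% of members on average. With peaks in 3 of 3 libraries there were 360 regions and 185 calls (75 and 110), and beyond 5 kb 781 regions and 399 calls (168 and 231). Joining peaks by short windows around summits gave a MYC share of 98.7%. Contrasts within clone TB (−0.101 in strength, −0.22 in log2 width, 12.7 bases between summits) and with the MYC antibody alone (−0.0258, −0.0763 and 13.8) have p = 0.1, the smallest 3 against 3 libraries allow in an exact permutation test. Leaving out each library in turn gave 687 to 1246 members, 605 to 634 calls (250 to 271 higher with TR4, 353 to 370 with BCL11A), −0.0611 to −0.0525 in strength, −0.15 to −0.13 in log2 width, 12.9 to 13.8 bases between summits and a MYC share of 99.3% to 100%. Cutting lists removes weak peaks by construction; for the other changes the cause was not tested. Correlations between same-numbered libraries of a TR4-directed and a BCL11A-directed group ran from −0.00957 to 0.135 over 27 pairs. The 4 over 0.1 were all between libraries numbered 3, and since not every pair passed 0.1 the numbers were not taken to pair libraries. Whether the libraries numbered 3 shared a batch cannot be told from this limit and was not tested. With the replicate block 629 regions were called and p was 0.00025 for strength, width and summits (exact permutation tests). With replicates 1 and 2 only, chosen after seeing the data, the values were −0.0509 in strength, −0.122 in log2 width and 11.7 bases between summits (p = 0.00216 each, the smallest that 6 against 6 libraries allow in an exact permutation test). Other alternatives chosen after seeing the data (promoter windows, chromosome 19 or crowded stretches left out) kept the side of the threshold for strength, width and summits.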

Other observations

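Distal core regions also lay at small RNA genes, within 1 kb of the records of 16 microRNA, 10 transfer RNA and 24 small nuclear RNA regions. The region at MIR3175 inside CHD2, a chromatin remodeller gene, had a mean percentile of 95.3 with TR4 and 26.7 with BCL11A and ranked higher with TR4. The region at MIR210, a microRNA known for its response to hypoxia, had 40.0 with TR4 and 73.4 with BCL11A, and regions at MIR3190 and MIR3191 inside BBC3 (the apoptosis gene PUMA) had 29.7 and 24.7 with TR4 and 60.7 and 64.9 with BCL11A, all 3 higher with BCL11A. A region near MYC at MIR1207 had 14.3 with TR4 and 65.5 with BCL11A and ranked higher with BCL11A. Of the 10 regions at transfer RNA genes, 3 ranked higher with TR4, among them TRE-TTC2-1 (73.5 with TR4 and 10.3 with BCL11A), and 4 higher with BCL11A, among them TRT-AGT1-3 (35.7 and 83.2). The backgrounds over all core regions were 25.9% and 27.5%. The 4 copies of MIR3180 on chromosome 16 each had a region, with 30.5 to 64.4 with TR4 and 30.9 to 55.6 with BCL11A, and how reads of such copies were placed is not stated. These groups were chosen after values were seen, and none was tested as a group.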
